A study of Homo sapiens with 6 samples.

Results

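Messenger RNA levels of 10 genes of the cellular antioxidant defense were followed in SW839 cells, an established renal cell carcinoma (RCC) line, after knockdown of the E3 ubiquitin ligase RNF25. The 10 genes were taken by symbol from a deposited table of 30267 genes, and all 10 were found and passed the filter on low values. They are NFE2L2, which encodes the transcription factor NRF2, its inhibitor KEAP1, the NRF2 targets NQO1, HMOX1, GCLM, GCLC, TXNRD1, SRXN1 and FTH1, and the mitochondrial superoxide dismutase SOD2. SOD2 and FTH1 are also known as targets of NF-κB, the pathway for which the study examined RNF25. Bulk RNA-seq covered 3 libraries from cells carrying an RNF25 hairpin (shRNF25) and 3 from cells carrying the pLKO control vector (shControl), described by the submitters as biological triplicates. Both lines were made by lentiviral infection and puromycin selection, so selection is shared by the groups, and no drug treatment is given for these libraries. The labels name a single hairpin line, which means that an effect of that hairpin on other transcripts cannot be told apart from the loss of RNF25. The treatment text of all 6 samples mentions the hairpin plasmid, so groups were taken from the titles and genotype labels.

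NRF2 is held at a low level in resting cells because KEAP1 joins it to a cullin ubiquitin ligase that marks it for degradation. Oxidants and electrophiles modify cysteines of KEAP1, NRF2 then accumulates, pairs with small MAF proteins and binds antioxidant response elements, while BACH1 competes for the same elements and represses several of the same genes, HMOX1 among them. Most of this control acts on the NRF2 protein, which RNA-seq does not measure. SOD2 converts superoxide to hydrogen peroxide in the mitochondrial matrix and is strongly induced by inflammatory signals through NF-κB.

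The core of the antioxidant response element (TGACNNNGC, searched on both strands) was looked for in the RefSeq promoter windows of the genes (GRCh38.p14, 300 bases each around an annotated start). For 8 of the 10 genes 14 windows were found, and HMOX1 and FTH1 had none in the table. The core was present in 4 of the 14 windows, those of KEAP1, GCLM and TXNRD1, against 13.35% of 35116 windows of all genes. These short stretches are shown because KEAP1, which was among the 2 genes that passed the test, carried 2 matches within 54 bases of a start site. Of these, 1 repeats the 9 letters of the GCLM match. TXNRD1, which did not pass, held a further match in its first window beside the printed one. That match, GCTCCGTCA at position -8 from the start site, is not printed. Capitals mark the match, in the strand of the gene.
KEAP1 upstream match, chr19:10502806-10502835, minus strand: acttttattgTGACACGGCgggcgcccggc
KEAP1 proximal match, chr19:10502783-10502812, minus strand: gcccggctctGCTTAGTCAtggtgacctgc
GCLM, chr1:93909445-93909474, minus strand: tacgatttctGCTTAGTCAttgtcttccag
TXNRD1 at its first start, chr12:104215670-104215699, plus strand: acacgggctaTGACTTCGCtgttgtcaccg
TXNRD1 at an internal start, chr12:104286920-104286949, plus strand: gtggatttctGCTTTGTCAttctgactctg
In GENCODE 29, all 30 bases of both KEAP1 stretches and of the internal TXNRD1 stretch lie within exons of longer transcripts of those genes, 12 bases of the GCLM stretch lie in its first exon, and the first TXNRD1 stretch lies before the gene. None of the 4 SOD2 windows held the core. The AP-1 site TGACTCA was in 0 of the 14 windows and in 4.95% of all windows, and the NF-κB consensus was in 0 of the 14 and in 5.91% of all windows. Matches to letters are a description of these windows and do not show binding. Bases outside the windows were not searched, so a gene without a match here can still carry the element. Some genes had several windows, so the shares are of windows and not of genes.

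Library depth was 18647460 to 19943154 reads on genes, and each of the 10 genes had between 310 and 80244 reads in every library. RNF25 itself, the target of the hairpin, had normalized counts of 694.2, 533.5 and 536.4 in shControl and 214, 246 and 265 in shRNF25 (log2 fold change -1.27, adjusted p = 0.000585 from limma). The shControl libraries resembled each other less than the shRNF25 libraries (Pearson correlation of log2 values 0.976 to 0.988 against 0.994). In shControl replicate 1 the mitochondrial transcript MT-CO1 took 4.54% of reads, against 1.46% to 1.80% in the other 5 libraries. This unevenness reached the genes studied here. Their coefficient of variation was 7.09% to 40.5% in shControl and 1.77% to 11.7% in shRNF25, and it was larger in shControl for 9 of 10 genes, as for 83.3% of all tested genes. Among the shControl libraries, 8 of the 10 genes were highest in replicate 3, which holds for 31.6% of all tested genes, and 6 were lowest in replicate 1, which holds for 39.5%. Without shControl replicate 1 limma called 18.0% of all tested genes lower and 15.8% higher, which is the background for member counts in that setting. Without any one of the shRNF25 libraries, 5.2% to 5.28% were called lower and 4.64% to 5.15% higher.

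Knockdown of RNF25 was accompanied by less SOD2 and more KEAP1 messenger RNA, whereas the classical NRF2 target genes among the 10 did not pass the test in either direction. SOD2 was lower by 2.69-fold and KEAP1 higher by 1.6-fold. By limma over 16554 genes, with Benjamini-Hochberg adjustment, 1 of 10 genes was lower at an adjusted p below 0.05 (10.8% of all tested genes were lower) and 1 was higher (10.5% of all). With the study's additional fold change of at least 1.5, the same 1 and 1 remained, beside 7.1% and 8.65% of all genes. These shares are close to the background, so the number of calls after adjustment says nothing particular about the 10 genes. At an unadjusted p below 0.05 by limma, 5 of the 10 were lower and 3 higher, beside 2987 and 2866 of all 16554 tested genes. In 7 of the 10 genes the libraries of the groups did not overlap, against 42.5% of all tested genes. The median log2 fold change was -0.22 over the 10 genes and -0.01 over all tested genes.

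**Figure D1:**
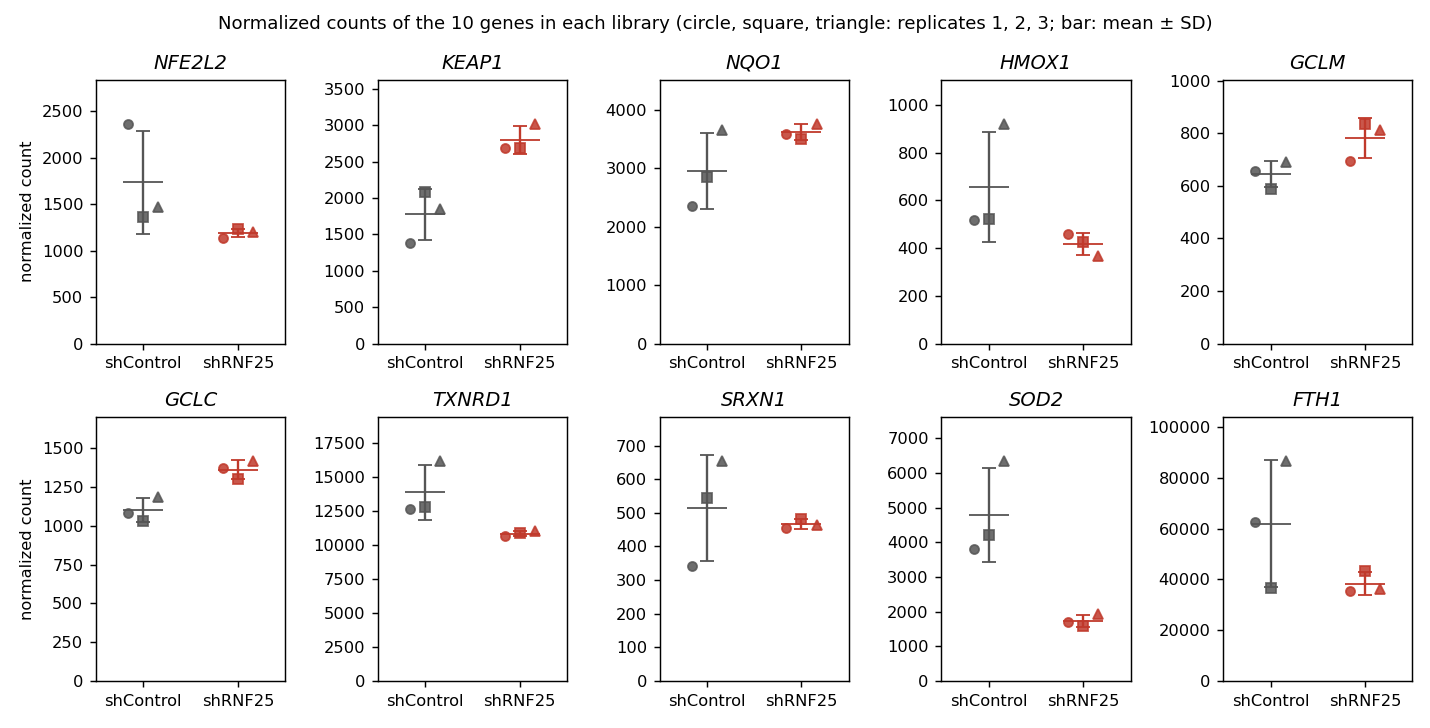
Normalized counts (vertical axes, each from 0) of the 10 genes in the 3 shControl and 3 shRNF25 libraries. Circles, squares and triangles are replicates 1, 2 and 3, and bars are the mean ± SD. SOD2 lies between 3805 and 6346 in shControl and between 1594 and 1924 in shRNF25, and the shControl libraries of FTH1 spread from 36489 to 86606.

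SOD2 had normalized counts of 3805, 4213 and 6346 in shControl replicates 1 to 3 and of 1698, 1594 and 1924 in shRNF25. Every shRNF25 library was thus below every shControl library, and the mean fell to 36.3% of the control mean. On the log2 scale SOD2 differed by -1.43 (SE 0.182, 95% interval -1.84 to -1.02, adjusted p = 0.000928 by limma), and a two-sided exact permutation test gave p = 0.1, the smallest value that 3 against 3 libraries allow. SOD2 was called lower under every setting tried, with log2 fold changes between -1.58 and -1.21. By the size of its change it stood in the top 4.65% of tested genes. The gene lies on chromosome 6 from 159669057 to 159745186 on the minus strand (GRCh38, GENCODE 29). That release holds 2 records named SOD2 with 845 shared exon bases, and the table has 1 row for the symbol. Reads at the WTAP gene on the opposite strand, which covers 1.81% of the SOD2 exon bases, cannot be separated if counting ignored strand.

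KEAP1, the adaptor that presents NRF2 to the ubiquitin ligase, had normalized counts of 1388, 2078 and 1854 in shControl and of 2684, 2689 and 3021 in shRNF25. All shRNF25 libraries were above all shControl libraries. KEAP1 rose by 0.68 on the log2 scale (SE 0.151, 95% interval 0.33 to 1.02, adjusted p = 0.0132 by limma, two-sided exact permutation p = 0.1). Without shRNF25 replicate 1 or 3 the adjusted p was 0.0543 and 0.0714, so the call was lost, with log2 fold changes of 0.70 and 0.62. In these fits 4.64% and 5.15% of all tested genes were called higher, against 10.5% with all 6 libraries. KEAP1 lies on chromosome 19 from 10486120 to 10503741 on the minus strand.

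NFE2L2 (chr2:177227595-177392697, minus strand) had normalized counts of 2367, 1363 and 1475 in shControl and of 1139, 1234 and 1196 in shRNF25. The shRNF25 values lay below all shControl values, but shControl replicate 1 stood well above the other controls, and the difference did not pass the test (log2 fold change -0.50, 95% interval -0.93 to -0.07, adjusted p = 0.0932). Without that library the estimate shrank to -0.25 while the spread shrank too, and limma gave an adjusted p of 0.0310. DESeq2 and limma with library weights also called NFE2L2 lower (adjusted p = 0.0475 and 0.0302). The call for NFE2L2 therefore depends on the method, and its size on 1 control library.

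The ratio of NFE2L2 to KEAP1 messenger RNA was 1.70, 0.656 and 0.796 in the shControl libraries and 0.425, 0.459 and 0.396 in the shRNF25 libraries. It was lower in each shRNF25 library than in any shControl library, by 1.18 on the log2 scale on average (two-sided exact permutation p = 0.1, 0.20 after adjustment over the 8 ratios compared). Without shControl replicate 1 the difference was -0.76 on that scale.

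None of the enzymes GCLC, GCLM and NQO1 passed the test in the fit of all 6 libraries. GCLC, the catalytic subunit of glutamate-cysteine ligase (chr6:53497341-53616970, minus strand), had normalized counts of 1086, 1031 and 1185 in shControl and of 1369.5, 1301 and 1417 in shRNF25, with no overlap (log2 fold change 0.31, 95% interval 0.07 to 0.55, adjusted p = 0.0663). GCLC was called higher by edgeR (adjusted p = 0.0472), by DESeq2 (0.0418), after quantile normalization (0.0252) and after rescaling (0.0374), and without shControl replicate 1 (0.0234) or 3 (0.0402). It was not called with library weights (adjusted p = 0.0786), with the replicate block (0.139), without shControl replicate 2 (0.137) or without any one of the shRNF25 libraries (0.165 to 0.251).

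GCLM, the modifier subunit of the same enzyme (chr1:93885205-93909456, minus strand), had 655.5, 590.0 and 689.7 in shControl and 696.1, 836.7 and 813.1 in shRNF25 (log2 fold change 0.28, adjusted p = 0.141). These groups did not overlap, although shControl replicate 3 and shRNF25 replicate 1 were nearly equal. The ratio of GCLM to GCLC was 0.573 to 0.604 in shControl and 0.509 to 0.643 in shRNF25, so the subunits kept overlapping proportions (difference -0.03 on the log2 scale, exact permutation p = 0.8).

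NQO1, a quinone reductase widely used as a readout of NRF2 (chr16:69706996-69726951, minus strand), had 2355, 2851 and 3650.1 in shControl and 3586, 3504 and 3764 in shRNF25. The control library of replicate 3 lay within the shRNF25 range, and the groups overlapped (log2 fold change 0.32, 95% interval -0.03 to 0.66, adjusted p = 0.173). Without shControl replicate 3 the log2 fold change was 0.48 and the adjusted p 0.0223, and without shControl replicate 1 they were 0.16 and 0.249.

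TXNRD1, the cytosolic thioredoxin reductase (chr12:104215779-104350305, plus strand), had normalized counts of 12661, 12778 and 16180 in shControl and of 10629, 10871 and 11008 in shRNF25. Its groups did not overlap, with a log2 fold change of -0.35 (95% interval -0.62 to -0.07, adjusted p = 0.0727), and of the alternatives tried it passed the test only without shControl replicate 1 (-0.41, adjusted p = 0.0156). After quantile normalization its log2 fold change was -0.13 (adjusted p = 0.479), and without shControl replicate 3 it was -0.23. The ratio of TXNRD1 to its substrate TXN differed by 0.03 on the log2 scale (exact permutation p = 0.9), and that to the mitochondrial reductase TXNRD2 by -0.71 with no overlap (exact permutation p = 0.1, adjusted 0.20). Without shControl replicate 1 the latter difference was -0.46.

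SRXN1, which repairs over-oxidized peroxiredoxins (chr20:646615-653370, minus strand), had 343, 545 and 654 in shControl and 454, 481 and 465 in shRNF25. All 3 shRNF25 libraries lay inside the shControl range (log2 fold change -0.09, 95% interval -0.56 to 0.39, adjusted p = 0.799). Its direction turned with the control libraries, from -0.35 without shControl replicate 1 to 0.11 without replicate 3. The record AL121758.1 on the same strand covers 85% of its exon bases, and the table lists that record at a mean of 0.728 in shControl.

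**Figure D2:**
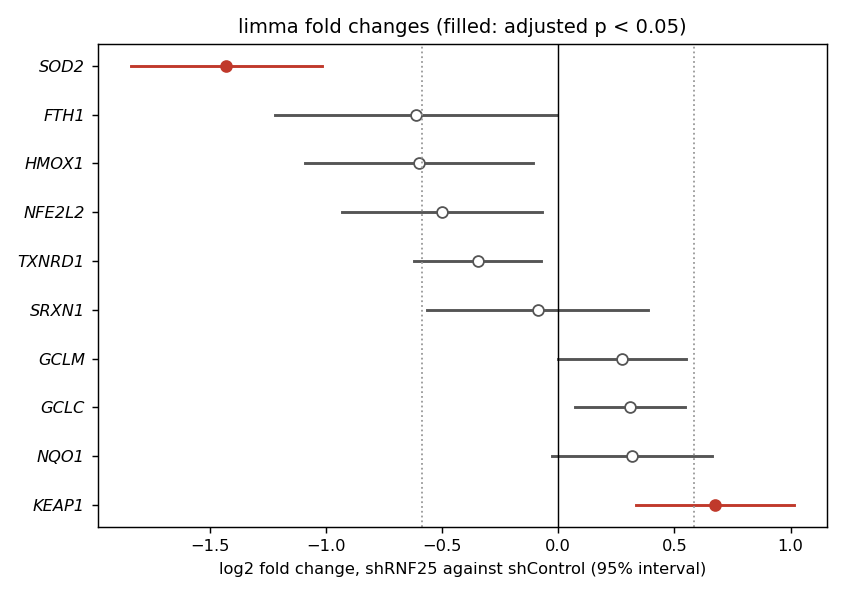
Log2 fold change (horizontal axis, shRNF25 against shControl, limma) with its 95% interval for each of the 10 genes. Filled points passed an adjusted p of 0.05 and dotted lines mark a fold change of 1.5; SOD2 at -1.43 and KEAP1 at 0.68 are the filled points.

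HMOX1, which degrades heme and is repressed by BACH1 (chr22:35380361-35394214, plus strand), had normalized counts of 518, 523 and 921 in shControl and of 460.1, 424 and 367 in shRNF25. All shRNF25 libraries were lower than all controls, but shControl replicate 3 stood far above the other controls (log2 fold change -0.60, 95% interval -1.09 to -0.11, adjusted p = 0.0808). The estimate was -0.33 without that library and -0.74 without shControl replicate 1, where it passed the test (adjusted p = 0.0211). DESeq2 and library weights called HMOX1 lower as well (adjusted p = 0.0352 and 0.0394). The ratio of HMOX1 to HMOX2 was 0.532, 0.423 and 0.863 in shControl and 0.510, 0.415 and 0.365 in shRNF25. This ratio overlapped between the groups, with a difference of -0.44 on the log2 scale (exact permutation p = 0.2).

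FTH1, the heavy chain of the iron store ferritin (chr11:61959718-61967660, minus strand), had 62653, 36489 and 86606 in shControl and 35274, 43452 and 36173 in shRNF25. The control libraries differed among themselves by more than the groups did, and shControl replicate 2 lay within the shRNF25 range (log2 fold change -0.61, 95% interval -1.22 to -0.01, adjusted p = 0.138). The estimate was -0.95 without shControl replicate 2, where it passed the test (adjusted p = 0.0123), and DESeq2 also called FTH1 lower (0.0411). It was -0.33 without shControl replicate 3 (adjusted p = 0.309) and -0.08 after quantile normalization (adjusted p = 0.855). Its light chain partner FTL, with normalized counts of 8745, 7717 and 9733 in shControl and 4991, 6031 and 5121 in shRNF25, fell with a log2 fold change of -0.70 (adjusted p = 0.00479). The ratio of FTH1 to FTL was 7.16, 4.73 and 8.90 in shControl and 7.07, 7.20 and 7.06 in shRNF25. In the shRNF25 libraries the chains were thus in a near constant ratio inside the wide control range (exact permutation p = 0.9). On its opposite strand BEST1 covers 62.4% of the FTH1 exon bases, and the table lists BEST1 at a mean of 52.9 in shControl and 91.5 in shRNF25.

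SOD2 was also set against enzymes that work beside it. SOD1, the cytosolic superoxide dismutase, had 3191, 4388 and 4134 in shControl and 3469, 3731 and 3733 in shRNF25 (log2 fold change -0.09, adjusted p = 0.677). The ratio of SOD2 to SOD1 went from 1.19, 0.960 and 1.54 to 0.490, 0.427 and 0.515, a difference of -1.34 on the log2 scale. Against catalase (CAT), which removes the hydrogen peroxide that dismutases make, the ratio differed by -1.49. Neither ratio overlapped between the groups (exact permutation p = 0.1 each, 0.20 adjusted over the 8 ratios).

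**Figure D3:**
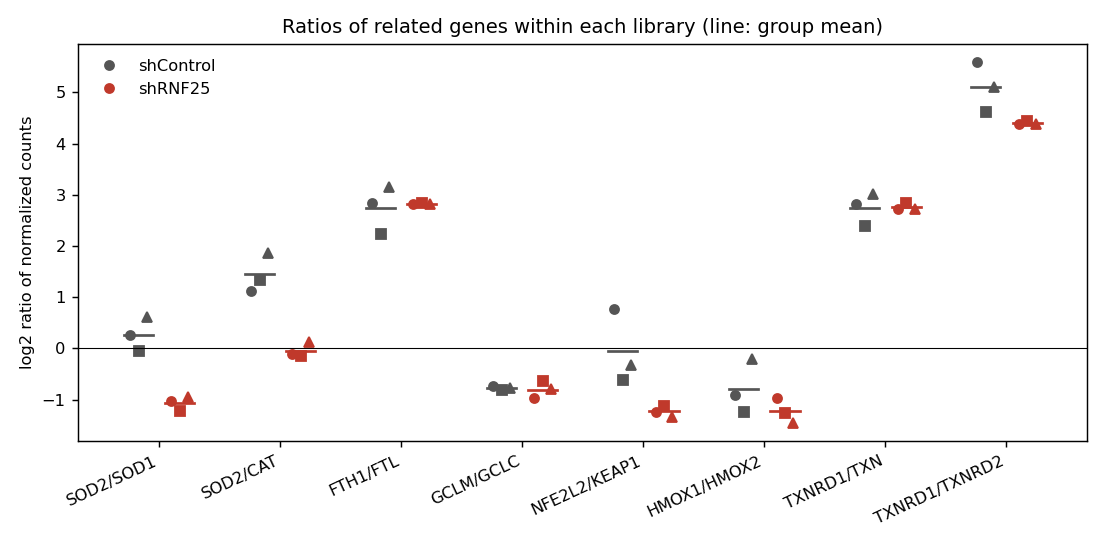
Log2 ratio of normalized counts of 2 related genes within each library (vertical axis), for 8 ratios. Symbols are replicates 1 to 3 as circle, square and triangle, and lines are group means; SOD2/SOD1, SOD2/CAT, NFE2L2/KEAP1 and TXNRD1/TXNRD2 are lower in all shRNF25 libraries than in any shControl library.

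Per kilobase of exon, FTH1 was the most abundant of the 10 in both groups, with 30500 ± 12348 normalized counts per kb in shControl and 18867 ± 2209 in shRNF25 (SD, n = 3). TXNRD1, NQO1 and KEAP1 followed in that order, and from FTH1 to KEAP1 neighbouring ranges did not overlap in either group. Further down, the order changed. In shControl SOD2 stood at 290.3 ± 82.7 per kb beside NFE2L2 at 290.2 ± 92.0, and each gene from KEAP1 down to GCLM overlapped the next. In shRNF25 SOD2 stood last at 105 ± 10.2 per kb, below GCLM at 144 ± 13.9 without overlap. The long SOD2 exon union of 16493 bases lowers its place in this order.

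Wider lists of the pathway were counted in the same fit, in which 10.8% of all tested genes were lower and 10.5% higher. Among 13 genes that control NRF2 protein or its DNA binding, 1 was lower and 1 higher, with a median log2 fold change of -0.18. The lower one was BACH1, the competing repressor, with normalized counts of 1430.4, 1172 and 1234 in shControl and 596, 548 and 583 in shRNF25. BACH1 fell to less than any control library, a change of -1.15 on the log2 scale (SE 0.116, adjusted p = 0.000275). The small MAF partners MAFF, MAFG and MAFK, and CUL3, the scaffold of the KEAP1 ligase, did not pass the test. Without shControl replicate 1, 6 of the 13 were called lower, beside 18.0% of all tested genes. Without shRNF25 replicate 1 or 3 the KEAP1 call of this list was lost.

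Of 34 NRF2 target genes, 2 were lower and 3 higher, and 22 had a log2 fold change above 0 (median 0.18). The lower ones were FTL and the aldo-keto reductase AKR1B10 (-0.92, adjusted p = 0.00671). ALDH3A1, an aldehyde dehydrogenase, had 35.4, 31.8 and 85.3 in shControl and 513, 423 and 453 in shRNF25. This was the largest rise of the list, with a log2 fold change of 3.30 (adjusted p = 0.000232). OSGIN1 and UGDH, the enzyme that makes UDP-glucuronate, rose by less (0.53 and 0.51, adjusted p = 0.0472 and 0.0438).

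The calls among these targets changed when single libraries of either group were left out. Without any one of the shRNF25 libraries, or without shControl replicate 2, ALDH3A1 was the 1 target called higher, so the calls of OSGIN1 and UGDH were lost. In the fits without a shRNF25 library, 4.64% to 5.15% of all tested genes were called higher, against 10.5% with all 6 libraries. Of the 34 targets, 26 were highest in replicate 3 among the shControl libraries, against 31.6% of all tested genes. Without that library 14 targets were called higher and 2 lower, among the former NQO1, GCLC, SLC7A11, PGD and GSR, while 12.5% of all tested genes were called higher. Without shControl replicate 1, 8 were called lower and 6 higher, beside 18.0% and 15.8% of all tested genes, and without replicate 2, 3 were lower and 1 higher, beside 8.68% and 8.66%. ALDH3A1 was called higher without each of the 3 control libraries. The labels name no batch for these libraries. The library names of shRNF25 form a single numbered series, whereas those of shControl do not. Whether the shControl libraries were prepared or sequenced apart is not given. The source of the difference between them was not tested.

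**Figure D4:**
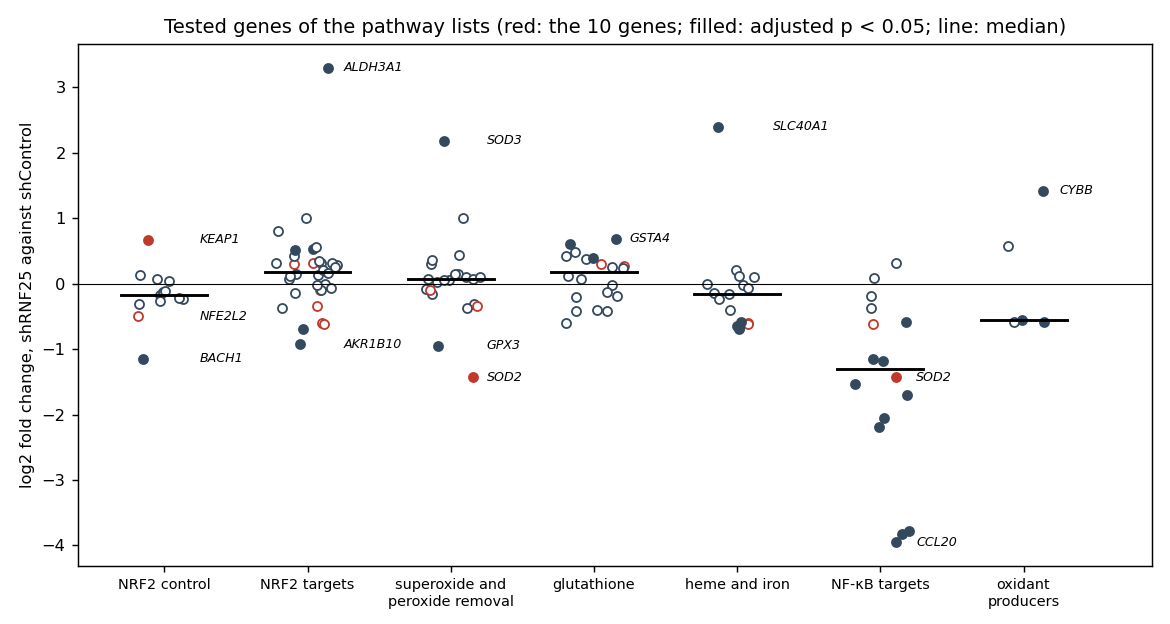
Log2 fold change (vertical axis, shRNF25 against shControl) of each tested gene in 7 pathway lists. Filled points passed an adjusted p of 0.05, red marks the 10 genes and lines are list medians; the NF-κB targets have a median of -1.30 and the NRF2 targets one of 0.18.

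Among 23 enzymes that remove superoxide and peroxide, 2 were lower and 1 was higher (median 0.07). Beside SOD2, the secreted peroxidase GPX3 fell (-0.95, adjusted p = 0.0266). The extracellular dismutase SOD3 went the opposite way from SOD2, with 157, 160.1 and 507 in shControl and 1067, 1081 and 1052 in shRNF25, and rose with a log2 fold change of 2.19 (adjusted p = 0.00418). The peroxiredoxins, thioredoxins and CAT did not pass the test. Without shControl replicate 1, 7 of the 23 were called lower, beside 18.0% of all tested genes. Without any other single library only SOD2 was, so the GPX3 call was lost in each of those 5 fits.

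In the glutathione list of 20 tested genes, 0 were lower by limma and 3 were higher, the transferases GSTA4 (0.69), GSTM2 (0.61) and GSTM4 (0.39). At an unadjusted p below 0.05, 4 were lower and 7 higher, beside 2987 and 2866 of all 16554 tested genes. On recovered reads, edgeR called 0 lower and 4 higher, beside 10.0% and 11.3% of all tested genes. DESeq2 called 2 lower and 4 higher, beside 12.3% and 11.1%. Without any one of the shRNF25 libraries no gene of the list was called higher, and without shControl replicate 3, 6 were. The shares of all tested genes called higher were 4.64% to 5.15% and 12.5% in those fits.

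Of 17 tested genes of iron and heme handling, 4 were lower (FTL, the cytosolic aconitase and iron sensor ACO1 at -0.68, the iron transporter SLC11A2 at -0.65 and the transferrin receptor TFRC at -0.59) and 1 higher, with a median of -0.16. TFRC had 10443, 10165 and 9968 in shControl and 6649, 6608 and 7105 in shRNF25 (adjusted p = 0.00315). SLC40A1, the iron exporter ferroportin, rose from 4.42, 9.23 and 12.95 to 60.1, 45.3 and 39.1, a log2 fold change of 2.40 at low counts (adjusted p = 0.00242). The count of lower genes ranged from 4 to 8 when single libraries were left out, with 8 reached without shControl replicate 1. Of all tested genes, 5.2% to 18.0% were called lower in these fits, the highest share also without shControl replicate 1.

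Of 16 tested NF-κB targets, 11 were lower by limma, SOD2 included, with a median of -1.30. By limma, edgeR and DESeq2, 0 were higher, beside 10.5%, 11.3% and 11.1% of all tested genes. At an unadjusted p below 0.05 by limma, 0 were higher, beside 2866 of all 16554 tested genes. From its RNA-seq of RNF25-knockdown SW839 cells the study had already reported lower NF-κB pathways, with CXCL1 and cIAP2 (BIRC3) among the reduced targets. Both are in this list, so its count is not independent of that report. The inflammatory mediators CCL20 (-3.95), IL6 (-3.83) and CXCL1 (-3.78) fell most. SOD2 lay near the middle of this list, and FTH1 was its other gene among the 10. Leaving out single libraries left 10 to 13 lower, beside 5.2% to 18.0% of all tested genes.

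Among genes that produce oxidants, 5 of 9 in the table passed the filter. The oxidase gene NOX5 fell (-0.58, adjusted p = 0.0215), and CYBB, which encodes another oxidase, rose by 1.42 at low counts (adjusted p = 0.00979).

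Over the 6 libraries, genes whose centred log2 profile lay close to that of SOD2 included TNC (Euclidean distance 0.181), HILPDA (0.189), ADM (0.313) and SEMA7A (0.328). These 4 were lower in shRNF25 by 1.25 to 1.45 on the log2 scale. For HMOX1 the nearest were TMEM45B (0.139), TMEM63C (0.153), CASKIN1 (0.213), TTC9 (0.224) and SCNN1D (0.235). None of these 5 passed the test (adjusted p = 0.0557 to 0.129). The distances are descriptions over the same 6 libraries.

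As to the identity of the cells, the epithelial keratins KRT8 and KRT18 and EPCAM were abundant and PAX8, a renal lineage factor, lay between 76.7 and 140.3 in every library, whereas LHX1 was at or near 0 and CA9, which many clear cell tumors express, varied from 1.85 to 50.7. Leukocyte and liver markers were low, with PTPRC at most 14.6, but the endothelial and platelet adhesion molecule PECAM1 lay between 349.9 and 549. The summed markers of other cell types were 1573 to 1943 in shControl and 1284 to 1575 in shRNF25, of which COL1A1 made up most. VIM, a mesenchymal filament, rose by 1.31 (adjusted p = 0.00805), and CDH5, an endothelial cadherin, fell from 73.0, 102.6 and 199 to 3.64, 8.31 and 5.72. The part of these differences in the results above was not tested.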

How the data were processed

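Total RNA of SW839 cells was depleted of ribosomal RNA and sequenced from stranded libraries. The submitters' processing notes name fastp, HISAT2, HTSeq and GRCh38 without versions, and the study's methods name DESeq2. Whether counting used strand is not given in the sources used here. The authors deposited normalized counts, a signal obtained by dividing each library's counts by a size factor (0.905 to 1.10). Whole reads were recovered for 100% of values within 0.01 reads.

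Deposited values were used as log2(normalized count + 1), which understates changes of low genes. The 16554 genes with at least 10 in at least 3 libraries were fitted with limma 3.58.1 (lmFit, eBayes with trend) in R 4.3.3, without covariates, and p-values were adjusted by Benjamini-Hochberg over all of them. Intervals are limma's 95% intervals and are not adjusted for the number of genes tested. Single genes and ratios were also compared by a two-sided exact permutation test, whose smallest p is 0.1. Alternatives were pseudocounts of 5 and 0.5, other filters, quantile normalization and rescaling, edgeR 4.0.16, DESeq2 1.42.0, library weights, the replicate number as a block and each library left out. The fit was also run on simulated counts with equal spread in both groups. That run cannot show how the fit handles the uneven shControl libraries.

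The 10 genes and the lists were chosen with earlier results of these data known. Named genes are the 10, RNF25, partners in ratios, up to 3 called rises and falls per list, and the 5 nearest profiles of SOD2 and HMOX1. Others, such as the MAF genes, CUL3, TFRC, the additional targets called without a control library, and markers, were named after their values were seen. Positions are from GENCODE 29, matched by symbol. Adjusted p-values across genes are limma's unless another tool is named. Some genes that meet this rule are not reported here.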

Additional observations from a re-analysis of the deposited data

How the results depend on the processing

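The fall of SOD2 kept its direction and its call under all 16 alternatives tried. The number of the 10 genes called lower was 1, against 4 with DESeq2, 3 with library weights and between 1 and 5 when single libraries were left out. Of all tested genes, 10.8%, 12.3%, 11.1% and between 5.2% and 18.0% were called lower in these fits. The number called higher was 1. It was 2 with quantile normalization, with rescaling on genes with a mean of at least 100, with edgeR and with DESeq2. With single libraries left out it was between 0 and 3. The share of all tested genes called higher was 10.5% in the main fit. It was 10.5%, 12.2%, 11.3% and 11.1% with those settings in turn, and 4.64% to 15.8% with single libraries left out. SRXN1 changed sign, ranging from -0.35 to 0.11 with single libraries left out, the latter without shControl replicate 3. With the replicate block 1 gene was lower and 1 higher, and the block changed no call among the 10. Libraries with the same number did not deviate together (correlations -0.0638, -0.0874 and 0.0471), so the numbers were not taken to pair samples. With single libraries left out, the differences in ratio ranged from -0.17 to 0.29 for FTH1/FTL, from -0.12 to 0.052 for GCLM/GCLC and from -0.15 to 0.16 for TXNRD1/TXN.

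The following counts for lists come from alternatives chosen after seeing the data. Both DESeq2 and library weights called 2 NRF2 control genes, 4 NRF2 targets and 2 glutathione genes lower. These settings called 12.3% and 11.1% of all tested genes lower. With single libraries left out, the lower and higher counts ranged from 1 to 6 and 0 to 1 for NRF2 control, 2 to 8 and 1 to 14 for NRF2 targets, 1 to 7 and 1 to 2 for superoxide and peroxide removal, 0 to 3 and 0 to 6 for glutathione, 4 to 8 and 1 to 2 for heme and iron, and 0 to 3 and 0 to 1 for oxidant producers. Over the fits with single libraries left out, 5.2% to 18.0% of all tested genes were called lower and 4.64% to 15.8% higher. Leaving out 1 library leaves fewer samples, and the cause of the other shifts was not tested. With 3 libraries a group, whether GCLC was called changed with the method. RNA levels do not give NRF2 or KEAP1 protein.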
